A study of Mus musculus with 12 samples.

Results

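The mitochondrial ribosomal protein genes are the nuclear genes named Mrpl and Mrps, and they were followed here in cultured mouse natural killer (NK) cells. Every gene of the deposited RPKM table whose symbol begins with Mrpl or Mrps and a number was taken, which gave 77 of 11706 genes, and 1 pseudogene, Mrpl23-ps1, was left out. RPKM is a read count scaled to transcript length and to the mapped reads of the library, a level that can be set side by side between genes because it is divided by length. Of the 77 genes, 50 encode proteins of the large subunit and 26 proteins of the small subunit. The exception is Mrps36, named as a small subunit gene but now known to encode a component of the 2-oxoglutarate dehydrogenase complex of the tricarboxylic acid cycle. By textbook relationship, 46 of the 76 ribosomal members have a bacterial counterpart and 30 are found in mitochondria only. The names do not always give the subunit, since Mrps18a and Mrps30 belong to the large subunit. All 77 genes reached a mean of 1 RPKM, the minimum set for testing, as did 11142 genes of the table, so none of them drops out of the counts that follow. The genes lie on 17 chromosomes, 10 of them on chromosome 11 and 0 on the X chromosome.

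The mitochondrial ribosome translates the few proteins that mitochondrial DNA still encodes, all of them subunits of the respiratory chain and of ATP synthase. Its 2 ribosomal RNAs, mt-Rnr1 and mt-Rnr2, are transcribed inside the organelle, whereas every one of its proteins is encoded in the nucleus, made in the cytosol and imported. Lymphocytes that are activated enlarge their mitochondria and raise mitochondrial translation, and in T cells this step is known to be needed for cytokine production and proliferation.

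The cells were splenic NK cells of C57BL6 mice, grown from splenocytes for 6 days in IL-15 at 10 ng/mL, and purified on magnetic columns. Per the labels, all groups were then given IL-2 at 330 U/mL and IL-12 at 10 ng/mL for 18 hours, which the Ifng and Pkm levels below leave in doubt for the genotype libraries. The PKM2 WT group (3 libraries) carried 1 copy of NCR1Cre, a Cre recombinase driven from the gene for the NK receptor NKp46, and the PKM2 KO group (2 libraries with a column, the remaining labelled sample not analysed here) carried the same Cre and PKM2 fl/fl. The vehicle group and the TEPP-46 group (3 libraries each) are labelled genotype WT, with no Cre named. TEPP-46 is a small molecule that activates pyruvate kinase M2. The series description gives its dose as 50 µM and the sample label as 50 mM, and the vehicle is DMSO at 0.1% in the labels and PBS in the description. The numbered samples are called biological replicates, but no source says whether each came from its own animal, so the p-values below measure the spread between these libraries.

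The target of the knockout was checked first. Pkm, the gene of the M1 and M2 isoforms of pyruvate kinase, was at 221, 198 and 199 RPKM in the PKM2 WT libraries and at 76.7 and 78.4 RPKM in the PKM2 KO libraries (limma adjusted p = 0.00847). The floxed allele is known to remove only the exon of the M2 isoform, so the level of the whole gene is an incomplete check. In vehicle it was at 1027, 1208 and 1019 RPKM and in TEPP-46 at 1089, 1155 and 1053 RPKM. The interferon gamma gene Ifng, which IL-12 induces in NK cells, was at 18.8 to 24.3 RPKM in the 5 genotype libraries and at 797 to 1083 RPKM in the 6 drug libraries. The authors' deposited table lists a mean ratio for Pkm of 5.78 between cytokine-treated and unstimulated PKM2 WT cells. In the authors' deposited table, Pkm in PKM2 KO over PKM2 WT is 0.539 with the cytokines and 0.396 without them. In the RPKM table the vehicle to PKM2 WT ratio was 5.27 and the KO to WT ratio 0.377. The groups are therefore named by their labels throughout, and whether the libraries labelled PKM2 WT and PKM2 KO had been stimulated was not tested. The NK identity gene Ncr1, which encodes NKp46, was at 235 to 258 RPKM in the genotype libraries and at 90.5 to 134 RPKM in the drug libraries. Other NK markers, given below, differed between the experiments in both directions.

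The members were expressed at moderate levels in all 11 libraries, and together they were lower in both genotype groups than in both drug groups. Their summed level was 2212, 2060 and 2115 RPKM in PKM2 WT libraries and 2067 and 2062 RPKM in PKM2 KO. It was 3583, 3552 and 3840 RPKM in vehicle and 3289, 3315 and 3555 RPKM in TEPP-46. The genotype libraries did not overlap the drug libraries, whereas PKM2 KO lay within the range of PKM2 WT, near its lower end. As a share of all RPKM, PKM2 KO was below PKM2 WT, at 0.1338% to 0.1340% against 0.136% to 0.164%. Without the abundant RNAs Rn7s1, Rn7s2 and Rn7sk in the total, the shares overlapped, at 0.295% to 0.306% against 0.293% to 0.318%. As groups, TEPP-46 overlapped vehicle in summed RPKM through its highest library, but each TEPP-46 library lay below the vehicle library of the same replicate number. The overlap depended on library scale. After scaling each library by the median ratio of its genes to their mean over libraries, TEPP-46 was at 3318 to 3448 RPKM and vehicle at 3530 to 3732 RPKM. In ratios of group means, PKM2 WT was 0.582 of vehicle, PKM2 KO 0.970 of PKM2 WT and TEPP-46 0.926 of vehicle.

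**Figure D1:**
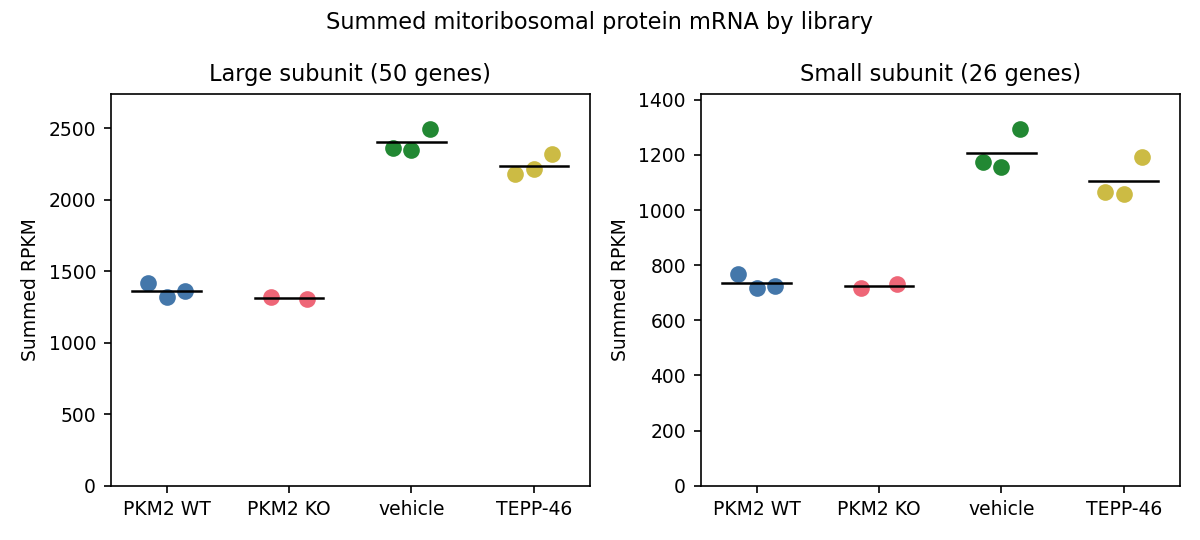
Summed RPKM of the 50 large subunit genes and of the 26 small subunit genes in each of the 11 libraries; points are libraries and black lines are group means. In both panels every genotype library is below every drug library; the large subunit genes lie between 1304 and 1415 RPKM in the genotype libraries and between 2182 and 2495 RPKM in the drug libraries.

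Both subunits were lower in the genotype libraries, the ratio of PKM2 WT to vehicle being 0.568 for the large subunit sum and 0.610 for the small one. The large subunit genes summed to 1365 ± 49.3 RPKM (SD, n = 3) for PKM2 WT and 2401 ± 81.2 RPKM (SD, n = 3) in vehicle, and the small subunit genes to 737 RPKM (717.9 to 766) and 1207 RPKM (1155 to 1294). The quotient of the large over the small subunit sum was 1.79 to 1.88 in the genotype libraries and 1.93 to 2.09 in the drug libraries, without overlap. The level of the median member was 18.6 to 20.7 RPKM in the genotype libraries and 30.1 to 39.0 RPKM in the drug libraries, whereas the median over all 11142 genes moved little, from 13.5 ± 0.299 RPKM (SD, n = 3) in PKM2 WT to 14.1 ± 0.282 RPKM (SD, n = 3) in vehicle. The scale of the libraries differed as well: Rn7s1, Rn7s2 and Rn7sk, abundant RNAs without a poly(A) tail, made up 48.3% to 56.2% of the summed RPKM in the genotype libraries and 32.4% to 42.0% in the drug libraries. As a share of the summed RPKM without those RNAs, the members held 0.303% ± 0.0130 (SD, n = 3) for PKM2 WT and 0.523% ± 0.0305 (SD, n = 3) in vehicle, a ratio of 0.580. As a share of protein-coding RPKM they held 0.425% ± 0.00713 and 0.626% ± 0.0222 (SD, n = 3 each), a ratio of 0.679. These are bulk samples, so fewer cells of a type and less RNA per cell cannot be told apart.

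The members spanned a wide range of levels per length. By their mean over the libraries, the highest were Mrps21, whose bacterial counterpart is a small protein of the small subunit, Mrpl52, Mrpl33, Mrpl30 and Mrpl42. The lowest were Mrpl11, a protein of the stalk base of the large subunit, Mrpl1, which forms the stalk at the tRNA exit side, Mrps27, a pentatricopeptide repeat protein, Mrpl14 and Mrpl47. Mrps21 led in each of the 5 genotype libraries with 145 to 178 RPKM, and Mrpl52 led in each of the 6 drug libraries with 197 to 252 RPKM. The ranking of the members was close between libraries of 1 experiment: Pearson's r of log2(RPKM + 1) over the 77 genes was 0.982 to 0.995 between libraries of 1 group, 0.980 to 0.995 between groups of 1 experiment and 0.860 to 0.902 between the experiments. These correlations are across genes that share gene length and sequence composition, and they serve as a description only.

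The clearest result for these genes was the contrast of the control groups of both experiments, PKM2 WT against vehicle. Both are labelled as given IL-2 and IL-12, but they differ in the Cre, in the vehicle, in Ifng level and in the experiment itself, and these cannot be told apart. They differ in sex too: the Y-linked gene Ddx3y was listed at 0 in PKM2 WT replicates 1 and 2, was at 39.0 RPKM in PKM2 WT replicate 3 and was at 33.4 to 34.3 RPKM in the vehicle libraries. In a limma fit over all 11 libraries, 70 of the 77 members were lower in PKM2 WT at an adjusted p under 0.05 and 3 were higher. The same test called 38.6% of all 11142 genes lower and 36.7% higher. The median difference of the members was -0.84 on the log2(RPKM + 1) scale, and their quartiles were -1.04 and -0.52; 74 of the 77 lay below 0, and 70 after quantile normalization. The median was -0.0038 over all genes tested and -0.060 over protein-coding genes. The groups did not overlap for 70 members lower in PKM2 WT and 3 higher, against 39.6% and 37.9% of all genes. Of the members called lower, 52 differed by more than 1.5-fold, and 1 of those called higher did. Calls of that size were 23.5% (lower) and 21.5% (higher) of all genes. With sex as a covariate, an alternative chosen after seeing the data, 66 members were called lower and 3 higher, and their median difference was -0.81.

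**Figure D2:**
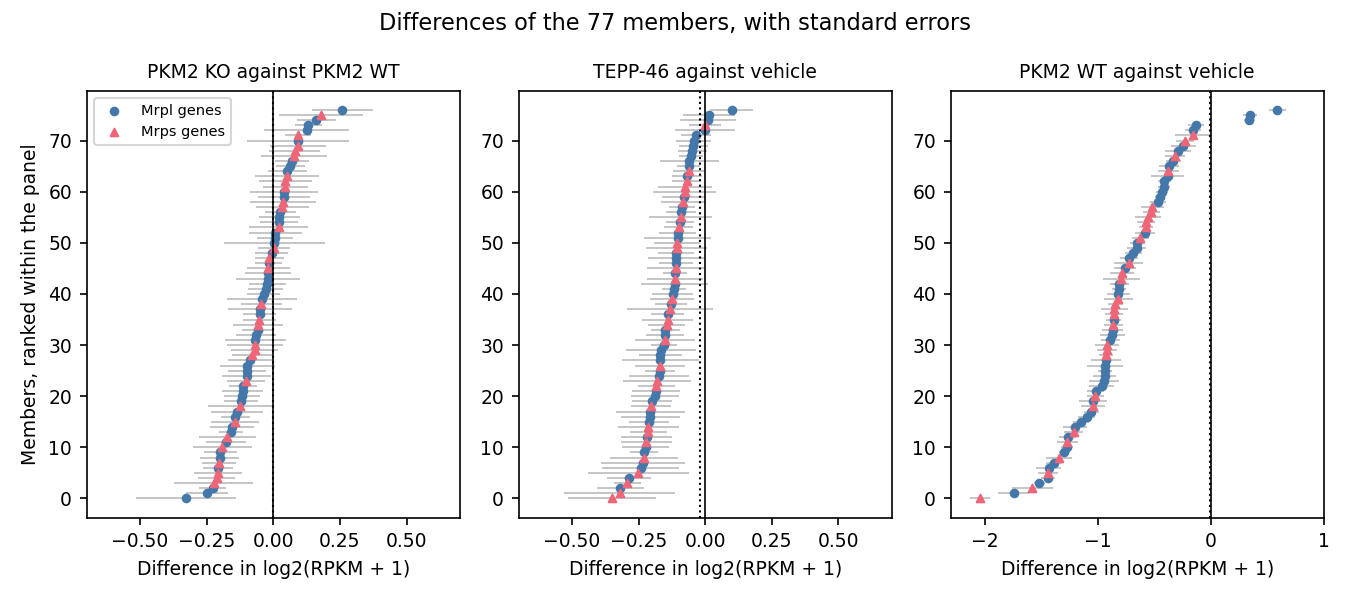
Difference in log2(RPKM + 1) of each of the 77 members in 3 comparisons, ranked within each panel; circles are Mrpl genes, triangles are Mrps genes, grey bars are standard errors and dotted lines are the median of all 11142 genes. The members crowd around a median of -0.84 for PKM2 WT against vehicle, with 3 to the right of 0, and around -0.044 and -0.13 for the knockout and TEPP-46, on a narrower axis.

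The direction was the same across the roles of the members. Of the 50 large subunit genes 44 were lower and 3 higher, with a median of -0.84, and of the 26 small subunit genes 25 were lower and 0 higher, with a median of -0.83. Among the 46 members with a bacterial counterpart 40 were lower and 3 higher. Among the 30 without one, 29 were lower and 0 higher. Mrps36, the member that is no ribosomal protein, was also lower, at 29.9, 25.5 and 27.2 RPKM against 48.1, 49.8 and 52.2 RPKM (log2 difference -0.84, SE 0.065, limma adjusted p = 1.56e-06).

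Mrps28, a small subunit protein and the counterpart of bacterial S1, moved farthest. Its level was 4.32, 4.35 and 3.92 RPKM in PKM2 WT libraries and 21.3, 19.1 and 20.8 RPKM in vehicle. The groups lie far apart, with a log2 difference of -2.04 (SE 0.086, limma adjusted p = 3.63e-08). The gene lies at chr3:8802146-8923918 on the minus strand of mm10, per GENCODE M21. Mrpl12, which forms the flexible stalk that recruits translation factors and is also known to bind the mitochondrial RNA polymerase, was at 11.9, 9.85 and 10.1 RPKM in PKM2 WT libraries and 35.5, 32.8 and 45.8 RPKM in vehicle (log2 difference -1.74, SE 0.14, limma adjusted p = 1.69e-06). Vehicle replicate 3 was the highest of the 3 for Mrpl12, yet the groups are well separated without it.

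The other stalk genes moved the same way. Mrpl53, a mitochondrion-specific neighbour of the stalk, differed by -1.20 (SE 0.11, limma adjusted p = 4.63e-06), and Mrpl11, at the stalk base, by -1.02 (SE 0.071, limma adjusted p = 8.33e-07). Mrpl10, which anchors the Mrpl12 dimers, was at 24.0, 21.6 and 22.1 RPKM in PKM2 WT libraries and 35.7, 37.2 and 34.8 RPKM in vehicle, a difference of -0.65 (SE 0.063, limma adjusted p = 7.98e-06). All 3 were lower in each PKM2 WT library than in any vehicle library.

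The paralogs of bacterial S18 also differed in size. Mrps18b was at 14.3, 11.7 and 14.6 RPKM in PKM2 WT libraries and 41.1, 35.2 and 51.8 RPKM in vehicle (log2 difference -1.58, SE 0.18, limma adjusted p = 2.50e-05). Mrps18a, the paralog that was recruited to the large subunit, differed by -1.02 (SE 0.075, limma adjusted p = 1.14e-06), and Mrps18c, the one closest in place to the bacterial protein, by -0.86 (SE 0.080, limma adjusted p = 5.97e-06). The 3 genes share a protein family but how reads shared between them were counted is not stated in these sources.

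Other members far below vehicle belonged to both subunits. Mrpl20, whose bacterial relative joins the large subunit early in assembly, was at 36.5, 35.9 and 35.3 RPKM in PKM2 WT libraries and 104, 100.1 and 109 RPKM in vehicle, with little spread within either group (log2 difference -1.51, SE 0.051, limma adjusted p = 1.17e-08). Mrpl52, a mitochondrion-specific large subunit protein, was at 89.6, 77.1 and 88.0 RPKM against 236, 252 and 206 RPKM (log2 difference -1.43, limma adjusted p = 1.38e-06). The log2 difference was -1.44 for Mrpl17, a large subunit protein with a bacterial relative, -1.44 for Mrps10, of the head of the small subunit, and -1.38 for Mrpl41, a mitochondrion-specific large subunit protein. In each of these 5 genes the lowest vehicle library exceeded the highest PKM2 WT library.

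**Figure D3:**
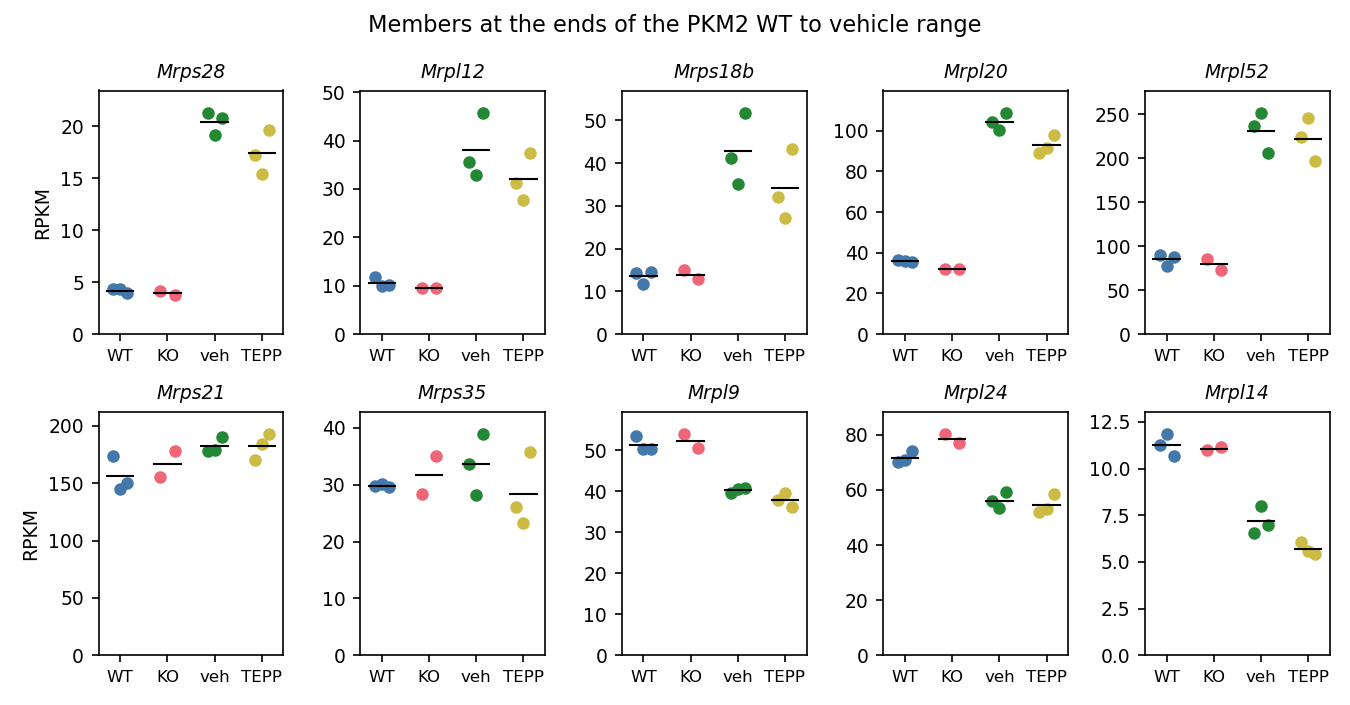
RPKM of 10 members in each library (WT and KO, the PKM2 genotype groups; veh, vehicle; TEPP, TEPP-46); points are libraries, black lines are group means, and each panel starts at 0 with its own axis. The upper row holds members with a large deficit in PKM2 WT against vehicle, such as Mrps28 at about 4.20 against 20.4 RPKM; the lower row holds Mrps21 and Mrps35, which differ little, and the 3 members that are higher in PKM2 WT.

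The exceptions were few. Mrpl14, a protein of the face of the large subunit that meets the small one, was at 11.3, 11.9 and 10.7 RPKM in PKM2 WT libraries and 6.55, 7.97 and 6.98 RPKM in vehicle (log2 difference 0.59, SE 0.074, limma adjusted p = 5.03e-05). Mrpl24 was at 70.3, 71.0 and 74.0 RPKM against 55.9, 53.4 and 59.2 RPKM (log2 difference 0.35, SE 0.060, limma adjusted p = 0.000455). Mrpl9 was at 53.4, 50.3 and 50.3 RPKM against 39.5, 40.6 and 40.8 RPKM (log2 difference 0.34, SE 0.052, limma adjusted p = 0.000185). The groups of these 3 genes did not overlap, in the direction opposite to the other members.

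All 3 have exons that overlap a gene on the opposite strand in GENCODE M21, as do 27 of the 77 members. Tmem63b, which overlaps Mrpl14, was at 0.750, 1.44 and 1.22 RPKM in PKM2 WT libraries and 0.280, 0.110 and 0.130 RPKM in vehicle. Rrnad1, which overlaps Mrpl24, was at 8.82, 9.44 and 12.1 RPKM against 8.33, 7.62 and 8.30 RPKM (limma adjusted p = 0.0795). Oaz3, which overlaps Mrpl9, was not analysed here. Both partners that were measured had higher means in PKM2 WT, like their Mrpl neighbours, and the library kit marks strand, but whether the counting used it is not stated in these sources, so the part of the partners' reads in these 3 results was not tested. Among the 27 members with such an overlap, 24 were lower and 3 higher, with a median difference of -0.73. Among the 50 members with no such overlap, 46 were lower and 0 higher, with a median of -0.86.

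The members that did not pass the test in either direction were Mrpl30, Mrpl32, Mrpl34 and Mrps35. Mrpl32, a protein known to need cleavage by the m-AAA protease before it is built in, was at 45.5, 49.4 and 52.9 RPKM in PKM2 WT libraries and 55.3, 54.4 and 65.8 RPKM in vehicle, with groups that just miss each other (limma adjusted p = 0.0685). The groups of the other 3 overlapped. Among the members called lower, Mrpl1 lay closest to the threshold, with a log2 difference of -0.29 (limma adjusted p = 0.0418) and with overlapping groups. Mrpl45 followed with -0.38 (limma adjusted p = 0.0380) and Mrps21 with -0.23 (limma adjusted p = 0.0306). None of the 3 calls held in every fit that left out 1 library or with sex as a covariate, and Mrps21 was at 0.029 after quantile normalization.

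The rest of the machine was compared through lists of other genes. The 6 further ribosomal subunits whose symbols do not begin with Mrp went the same way: Chchd1, Aurkaip1, Dap3, Ptcd3 and Gadd45gip1 were lower in PKM2 WT and 1 was higher. Aurkaip1, a small subunit protein, was at 53.7, 53.6 and 51.8 RPKM in PKM2 WT libraries and 94.4, 95.8 and 96.5 RPKM in vehicle (log2 difference -0.84, limma adjusted p = 1.10e-07). Chchd1, another small subunit protein, differed by -1.19 (limma adjusted p = 5.61e-07). The gene that was higher was Ict1, a peptidyl-tRNA hydrolase built into the large subunit, at 65.7, 65.8 and 64.6 RPKM against 51.8, 54.7 and 56.5 RPKM (log2 difference 0.26, limma adjusted p = 0.00482).

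Genes that build and serve the mitochondrial ribosome were divided in direction. Of 25 genes for its assembly, 11 were lower and 5 higher, with a median of -0.064. Wbscr16, an assembly factor, was at 3.21 ± 0.0971 RPKM for PKM2 WT and 8.68 ± 0.745 RPKM in vehicle (SD, n = 3 each), and the RNA helicase Ddx28 at 27.4 ± 0.747 and 15.4 ± 0.806 RPKM (SD, n = 3 each). Both passed the test, in opposite directions (limma adjusted p = 3.39e-07 and 2.90e-06).

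Of 14 translation factors of mitochondria, 6 were lower and 4 higher, with a median of -0.037. The elongation factor Gfm1 was lower, with a log2 difference of -1.19 (limma adjusted p = 1.82e-05), whereas Oxa1l, which inserts new proteins into the inner membrane, was higher, with a log2 difference of 0.48 (limma adjusted p = 1.49e-05). Of 15 tRNA synthetases of mitochondria, 8 were lower and 3 higher, with a median of -0.32. The shares called lower in these lists were 44.0%, 42.9% and 53.3%, beside 38.6% of all genes and 90.9% of the members.

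Regulators of mitochondrial gene expression were divided too, 7 of 17 being lower and 4 higher. These shares were 41.2% and 23.5%, beside 38.6% and 36.7% of all genes. Myc, a transcription factor that raises ribosome production, was at 23.8, 21.7 and 21.0 RPKM in PKM2 WT libraries and 72.2, 73.4 and 80.2 RPKM in vehicle (log2 difference -1.72, limma adjusted p = 2.02e-08). Pprc1, a coactivator of nuclear genes for mitochondria, was at 3.09, 3.03 and 3.97 RPKM against 16.7, 11.9 and 17.4 RPKM (log2 difference -1.89, limma adjusted p = 8.00e-06). The mitochondrial protease Lonp1 differed by -1.41 (limma adjusted p = 1.98e-07) and Gabpb1, a subunit of the ETS-family factor NRF2, by -0.54 (limma adjusted p = 3.02e-06). The 4 higher in PKM2 WT were Yy1, a zinc-finger transcription factor, by 0.44 (limma adjusted p = 0.000504), Polg2, the accessory subunit of the mitochondrial DNA polymerase, by 0.27, and the transcription termination factor genes Mterf1a, by 0.57, and Mterf1b, by 0.77. Gabpa, the DNA-binding subunit of NRF2, and Nrf1 did not pass the test, at differences of -0.026 and -0.082 (limma adjusted p = 0.847 and 0.222).

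The products of mitochondrial DNA moved the opposite way. The ribosomal RNA of the small subunit, mt-Rnr1, was at 4559, 5011 and 4486 RPKM in PKM2 WT libraries and 1810, 1527 and 2203 RPKM in vehicle (log2 difference 1.36, SE 0.14, limma adjusted p = 9.60e-06). That of the large subunit, mt-Rnr2, was at 17025, 17542 and 17449 RPKM against 6778, 6322 and 8492 RPKM (log2 difference 1.28, SE 0.12, limma adjusted p = 6.01e-06). Of the 13 protein-coding genes of mitochondrial DNA, 8 were higher in PKM2 WT and 1, mt-Nd3, was lower, with a median of 0.68. The RNA that the ribosome is built on and most of the mRNAs it translates were thus measured higher where the mRNAs of its proteins were lower. These RNAs have short or no poly(A) tails, and the kit label names poly(A) selection while the title and description speak of total RNA; with Rn7s1, Rn7s2 and Rn7sk also taking a larger share in the genotype libraries, the part of RNA selection in this contrast was not tested.

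**Figure D4:**
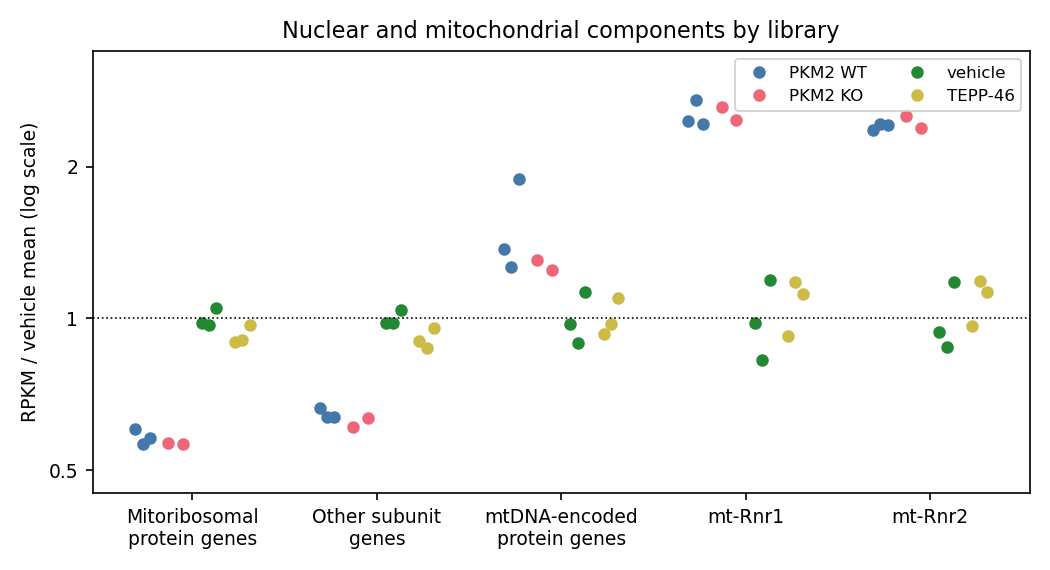
RPKM of each library divided by the vehicle mean, on a log scale, for the summed 77 members, the 6 other subunit genes, the 13 protein-coding genes of mitochondrial DNA, mt-Rnr1 and mt-Rnr2; points are libraries. The nuclear sums of the genotype libraries lie below the vehicle mean (PKM2 WT at 0.582 and 0.646 of it), whereas mt-Rnr1 and mt-Rnr2 of PKM2 WT lie at 2.54 and 2.41 times it.

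Genes listed as markers of other cells differed between the experiments too. The 6 basophil and mast cell markers summed to 122, 145 and 305 RPKM in PKM2 WT, 115 and 68.5 RPKM in PKM2 KO and 7.44 to 32.1 RPKM in the drug libraries, and all 6 were higher in PKM2 WT than in vehicle. The 10 NK markers summed to 6052 to 6605 RPKM in the genotype libraries and 18284 to 21031 RPKM in the drug libraries, with 4 of them higher in PKM2 WT and 4 lower. Most of that gap was Gzmb, the gene of granzyme B: without it the sums were 3431 to 3722 RPKM in PKM2 WT and 4194 to 4322 RPKM in vehicle. Of the 8 T cell markers listed, 4 had values, all 4 higher in PKM2 WT, and they summed to 117 to 143 RPKM in PKM2 WT libraries and 19.1 to 23.4 RPKM in vehicle, or to 32.6 to 46.7 RPKM and 11.9 to 15.1 RPKM without Cd3g. The myeloid markers with values were Cd68 and Itgam, with 3 entries between them, all higher in PKM2 WT. Csf1r, Lyz2, Adgre1, S100a8 and S100a9, also on the myeloid list, had no value to analyse. No B cell or erythroid marker on the lists had one either. Whether the NK cells themselves expressed any of these genes was not tested. Mki67, a marker of proliferation, differed by -1.33 (limma adjusted p = 4.31e-08). The part of other cells and of proliferation in the levels of the mitoribosomal genes was not tested.

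The sequences before the start sites were read for what the members share. Promoters of 68 of the 77 members were found in RefSeq's table (GRCm38.p6), as windows from 250 bases before to 50 bases after the start. Motifs were searched on both strands by their exact letters. CCGGAAG, bound by ETS factors such as NRF2, was in the windows of 25 members (36.8%). It was in 8.86% of all 32851 windows and 23.6% of the 7574 protein-coding genes of the RPKM table with a window. AAGATGGC, the YY1 motif, which can overlap the ETS letters by a few bases, was in 12 members (17.6%), against 2.75% and 6.07%. GCATGCGC, part of the NRF1 motif, was in 8 members (11.8%), against 2.71% and 6.81%. CACGTG, the E-box that MYC among others binds, was in 5 members (7.35%), against 7.15% and 12.0%. In all, 39 members (57.4%) held at least 1 of the 4, against 40.8% of the protein-coding genes.

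Between PKM2 WT and vehicle, the median difference was below 0 with and without each motif. It was -0.86 for the 25 members with the ETS letters and -0.81 for the 43 without, -0.92 for the 12 with the YY1 letters and -0.80 for the 56 without, and -0.69 for the 8 with the NRF1 part and -0.85 for the 60 without. The 5 members with an E-box had a median of -0.86 and the 63 without one -0.81. These are descriptions over genes, and a match is not a bound site.

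The upstream stretches of 5 members are shown because their genes are among those named for the size or the p of a difference and no annotated exon lies in them. Each is the 90 bases before the start, 5′ to 3′ on the gene's own strand, with a searched motif in capitals where there is one. That of Mrpl20 (chr4:155802788-155802877, plus strand) holds an E-box, and that of Mrpl52 (chr14:54426819-54426908, plus strand) the ETS letters on the opposite strand. Those of Mrpl41 (chr2:24975099-24975188, minus strand), Mrps36 (chr13:100744660-100744749, minus strand) and Mrpl42 (chr10:95501950-95502039, minus strand) hold none of the 4 in these bases.
Mrpl20: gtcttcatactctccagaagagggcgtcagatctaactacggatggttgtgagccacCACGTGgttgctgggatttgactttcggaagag
Mrpl52: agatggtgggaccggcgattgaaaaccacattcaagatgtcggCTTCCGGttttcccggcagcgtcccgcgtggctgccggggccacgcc
Mrpl41: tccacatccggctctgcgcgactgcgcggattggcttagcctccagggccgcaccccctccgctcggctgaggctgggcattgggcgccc
Mrps36: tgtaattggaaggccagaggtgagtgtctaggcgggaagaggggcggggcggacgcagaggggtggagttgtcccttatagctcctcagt
Mrpl42: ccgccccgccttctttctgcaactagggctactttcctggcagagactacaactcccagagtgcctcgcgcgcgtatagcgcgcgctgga
Mrpl20, Mrpl52 and Mrpl41 were each lower by over 1 log2 unit in PKM2 WT than in vehicle, with an E-box, the ETS letters or none of the 4 in the stretch shown.

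Activation of pyruvate kinase M2 was the question of the drug experiment. No member passed limma's test between TEPP-46 and vehicle, and neither did any other gene: 0% of the 11142 genes were called higher and 0% lower. At an unadjusted p under 0.05 there were 15 of the 77 members, beside 9.43% of all genes. The members leaned to one side, 73 of 77 having a difference below 0 (94.8%), beside 6309 of the 11142 genes (56.6%). Their median was -0.13 on the log2(RPKM + 1) scale and that of all genes -0.020. The groups did not overlap for 17 members, all lower in TEPP-46, and for 0 higher, beside 7.71% and 7.61% of all genes. Of the 17, 15 were large subunit genes, which make up 50 of the 77 members. The median difference was nearly the same in both subunits, at -0.125 for the large and -0.128 for the small one. With 3 libraries against 3, an exact permutation test of 1 gene cannot give a two-sided p below 0.1.

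**Figure D5:**
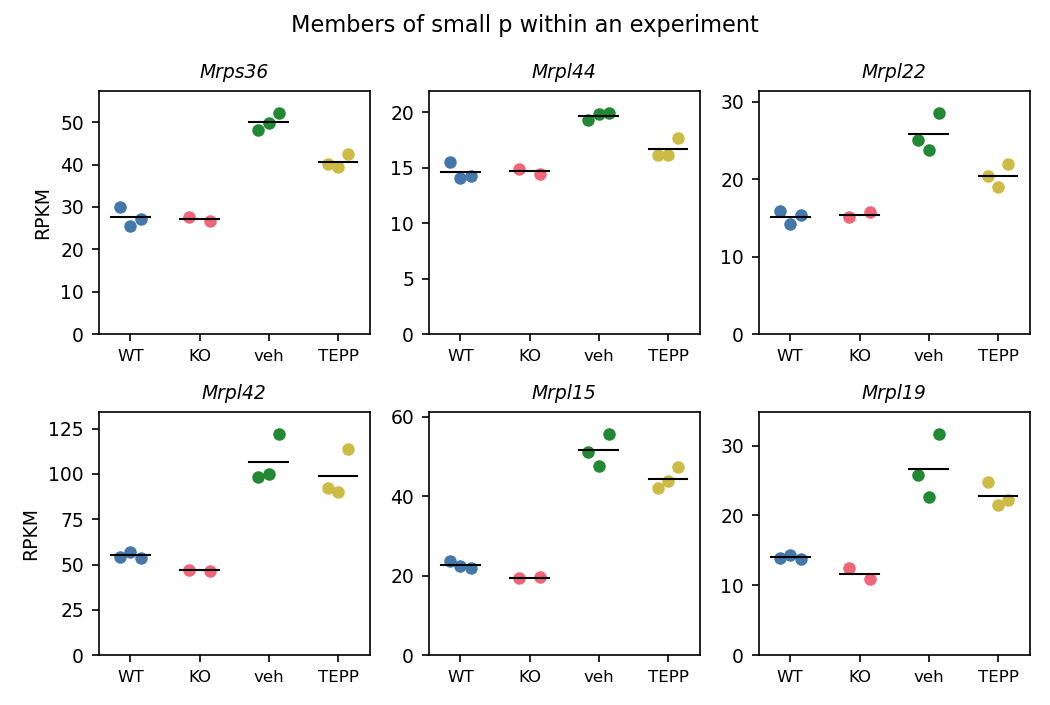
RPKM of 6 members in each library (group names as WT, KO, veh and TEPP), with group means as black lines and each axis from 0. In the upper row, Mrps36, Mrpl44 and Mrpl22 have the smallest p of TEPP-46 against vehicle; in the lower row, Mrpl42, Mrpl15 and Mrpl19 are among the 6 smallest of PKM2 KO against PKM2 WT; none passed the adjusted threshold.

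The member with the smallest p was Mrps36. Its level was 48.1, 49.8 and 52.2 RPKM in vehicle and 40.2, 39.4 and 42.6 RPKM in TEPP-46. Every treated library lay below every vehicle library, with a log2 difference of -0.29 (95% interval -0.42 to -0.16), but the value did not pass over all genes (limma adjusted p = 0.319). Mrpl44, which has the fold of a ribonuclease III, was at 19.3, 19.8 and 20.0 RPKM in vehicle and 16.2, 16.2 and 17.6 RPKM in TEPP-46 (limma adjusted p = 0.339).

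Mrpl22, a protein that lines the exit tunnel of the large subunit, was at 25.1, 23.7 and 28.6 RPKM in vehicle and 20.4, 19.0 and 22.0 RPKM in TEPP-46 (log2 difference -0.32, limma adjusted p = 0.402). Mrpl4, which reaches the same tunnel, was at 36.8, 37.8 and 38.5 RPKM against 31.8, 34.6 and 35.3 RPKM (limma adjusted p = 0.484). Neither gene's groups overlapped. Mrpl14, one of the 3 members that ran against the rest in PKM2 WT against vehicle, was at 6.55, 7.97 and 6.98 RPKM in vehicle and 6.05, 5.57 and 5.43 RPKM in TEPP-46 (limma adjusted p = 0.425).

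A further 5 members complete the 10 smallest p: Mrpl53, Mrpl20, Mrps18a, Mrpl15 and Mrps30, with log2 differences between -0.21 and -0.15. Mrpl20 was at 88.9, 91.3 and 97.8 RPKM in TEPP-46, below its 3 vehicle values. The other stalk genes lay lower by small amounts, Mrpl10 by -0.062, Mrpl11 by -0.20 and Mrpl12 by -0.23, none past the threshold (limma adjusted p = 0.679, 0.496 and 0.679). Mrpl41 was the member farthest above 0, at 73.8, 72.3 and 83.1 RPKM against 73.0, 65.3 and 75.5 RPKM in vehicle, with overlapping groups (log2 difference 0.099, limma adjusted p = 0.734).

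The lean varied in size with single libraries, and the median stayed below 0 in each of the 6 fits that left out 1. Replicate 3 was the highest library of both groups for the summed level. The median difference of the members was -0.092 without vehicle replicate 3 and -0.19 without TEPP-46 replicate 3. Each of these fits kept the replicate 3 library of the other group. Over the 9 alternatives that kept all libraries, the replicate block among them, the median was -0.13 to -0.10. Of the companion lists, the 6 other subunit genes were all below 0 with a median of -0.14, the 25 assembly genes had 19 below 0 and the 14 translation factors 12, and 0 genes of these lists passed. The 10 NK markers were all above 0 in the same libraries, with a median of 0.21 and 0 called, and Mki67 was at -0.20 (limma adjusted p = 0.372); their part in the members' lean was not tested.

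Loss of PKM2 was the question of the genotype experiment. No member was called by limma between PKM2 KO and PKM2 WT, beside 0.018% of all genes higher and 0.0808% lower, and at an unadjusted p under 0.05 there were 9 members, beside 7.94% of all genes. Their differences lay on both sides of 0, 49 below (63.6%) and 28 above, beside 49.7% of all genes below 0. The median of the members was -0.044 against 0 for all genes. The groups did not overlap for 20 members lower in PKM2 KO and 5 higher, beside 14.5% and 10.2% of all genes. Leaving out PKM2 WT replicate 1 gave a median of -0.027, and leaving out PKM2 KO replicate 2 gave -0.025. The range of the differences was -0.33 to 0.26, far narrower than between the control groups of both experiments.

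Mrpl42, a mitochondrion-specific large subunit protein, had the smallest p. It was at 54.3, 57.1 and 53.7 RPKM in PKM2 WT libraries and 47.3 and 46.5 RPKM in PKM2 KO. The groups were apart and the log2 difference was -0.23 (95% interval -0.36 to -0.097), with a limma adjusted p of 0.459. Mrpl15, a large subunit protein with a bacterial relative, was at 23.6, 22.5 and 22.0 RPKM in PKM2 WT libraries and 19.5 and 19.6 RPKM in PKM2 KO (limma adjusted p = 0.513).

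Mrpl20 was at 36.5, 35.9 and 35.3 RPKM in PKM2 WT libraries and 32.0 and 32.0 RPKM in PKM2 KO (log2 difference -0.16, limma adjusted p = 0.537). Mrpl19, whose bacterial relative sits where the subunits meet, was at 14.0, 14.3 and 13.8 RPKM against 12.5 and 10.8 RPKM (limma adjusted p = 0.565). Each of these genes was below all PKM2 WT libraries in both PKM2 KO libraries. The small subunit genes Mrps22 and Mrps23 and the large subunit genes Mrpl18, Mrpl40 and Mrpl41 had log2 differences between -0.21 and -0.14, also with groups apart and none past the threshold.

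Mrpl24 was the only one of the 10 smallest p with a difference above 0, at 80.5 and 76.9 RPKM in PKM2 KO against 70.3, 71.0 and 74.0 RPKM in PKM2 WT (limma adjusted p = 0.627). Mrpl38, a large subunit protein related to phosphatidylethanolamine-binding proteins, was farthest above 0, at 10.4 and 13.1 RPKM against 9.53, 9.08 and 10.1 RPKM (log2 difference 0.26, limma adjusted p = 0.662). Mrps28 and Mrpl12, the members farthest apart between the control groups, differed by -0.070 and -0.14 here, neither past the threshold (limma adjusted p = 0.883 and 0.805).

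The animals' sexes were mixed in both genotype groups, Ddx3y being listed at 0 in PKM2 KO replicate 1 and at 36.2 RPKM in PKM2 KO replicate 2. With sex as a covariate 0 members passed and the median difference was -0.035. The basophil and mast cell markers were also lower in PKM2 KO, by a median of -0.93 on the log2 scale with 0 of 6 called, and of the 4 T cell markers with values 0 were called. Cd3g was at 14.6 and 6.43 RPKM in PKM2 KO against 84.8, 69.9 and 100.2 RPKM in PKM2 WT, and the other 3 summed to 29.3 and 39.3 RPKM against 32.6 to 46.7 RPKM. The part of these markers in the members' values was not tested. The mitochondrial ribosomal RNA mt-Rnr1 was at 4853 and 4578 RPKM in PKM2 KO, within the range of PKM2 WT. The 13 protein-coding genes of mitochondrial DNA were all below 0, with a median of -0.22 and 0 called, beside 49.7% of all genes below 0. They summed to 17766, 16374 and 24470 RPKM in PKM2 WT replicates 1, 2 and 3, and to 16868 and 16139 RPKM in PKM2 KO. Replicate 3 of PKM2 WT was thus far above the other libraries.

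Whether the effects of the knockout and of TEPP-46 differ was tested in 1 fit over the 4 groups. The effects come from experiments whose controls differ in Cre, vehicle, sex and Ifng level. A difference between them cannot be told apart from those. No member passed limma's test, beside 0.00898% of all genes called higher and 0.0449% called lower, and at an unadjusted p under 0.05 there were 8 members, beside 6.72% of all genes. The difference, knockout effect minus TEPP-46 effect, was above 0 in 58 members and below 0 in 19, with a median of 0.091 against 0.012 for all genes. Leaving out PKM2 WT replicate 2 gave 0.052 and leaving out TEPP-46 replicate 2 gave 0.056. Mrpl22 had the smallest p, with effects of 0.022 for the knockout and -0.32 for TEPP-46, a difference of 0.34 (95% interval 0.076 to 0.61, limma adjusted p = 0.621). For Mrps36 the effects were -0.018 and -0.29 (difference 0.27, limma adjusted p = 0.636).

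Mrpl41 ran the other way, at -0.14 for the knockout and 0.099 for TEPP-46 (difference -0.24, limma adjusted p = 0.740). The small subunit protein Mrps5 had one of the widest gaps, 0.53, with an interval of -0.019 to 1.08 that includes 0. Mrpl15 and Mrpl20 had differences of 0.0042 (95% interval -0.22 to 0.23) and 0.011 (95% interval -0.16 to 0.18), their values being lower by similar amounts in both experiments.

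The authors' deposited tables of selected genes were searched for the members as well. None of the 77 was among the 24 genes of the authors' deposited table for TEPP-46 or the 11 genes of the authors' deposited table for the knockout. Those tables are named for cutoffs of 1.5-fold and a false discovery rate of 0.05. All differences of the members were smaller than 1.5-fold in both comparisons, so their absence adds no separate evidence. For TEPP-46 the limma fit called 0 of the 11142 genes, unlike the authors' own test.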

How the data were processed

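RNA was made into libraries with a stranded kit and poly(A) selection, per the labels' protocols, and the title speaks of total RNA. Reads were aligned with STAR to mm10, per the submitters' processing notes; no source here names the counter, its strand setting or the annotation. The authors deposited RPKM per gene, so read depth per library is unknown and no count test was run. The authors also deposited tables of selected genes with their own ratio of means and p-value, from which the Pkm ratios are quoted. Of the columns, 11 matched the labels and 5 matched no sample and were not used; PKM2 KO replicate 3 was not analysed here. The 77 members and the gene lists were chosen with earlier results of these data known.

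Values were taken as log2(RPKM + 1), and genes averaging 1 RPKM or more across the 11 libraries (11142) were tested with limma 3.58.1 (R 4.3.3, trended prior variance) with Benjamini-Hochberg adjustment over all of them, threshold 0.05. On this scale the change of genes with low values is understated. The knockout (3 against 2) and TEPP-46 (3 against 3) were fitted within their own libraries; PKM2 WT against vehicle and the difference of the effects were fitted over all 11 as 4 group means. Gene lists are given as counts and medians with no test. Gene positions and exon overlaps come from GENCODE M21 (11675 IDs matched), promoters from RefSeq's GRCm38.p6 table, and 32 members share exon bases with another gene. On simulated data, changes of 1.5-fold were recovered at 50.7% by the knockout fit and 68.7% by the TEPP-46 fit. Changes of 2-fold were recovered at 88.1% and 94.0%, with 4 and 6 false calls. The members' differences in these comparisons were all smaller than 1.5-fold, so the lack of calls does not exclude changes of that size. Named members were the 5 highest and 5 lowest by mean, the stalk and Mrps18 genes, and in each comparison the up to 8 higher and 8 lower with the largest called differences and groups apart, or the 10 smallest p where fewer than 5 passed; Mrpl32, Mrpl34, Mrpl45, Mrps35, Mki67, genes whose exons overlap a member and members named again in another comparison were chosen after their values were seen. The main fits were not blocked by replicate number, as no method states a block. Between vehicle and TEPP-46, deviations correlated at 0.052 to 0.284 for libraries of the same number and -0.281 to 0.0013 for different numbers. Between the genotypes they correlated at 0.070 and -0.097 for the same number and -0.149 to 0.149 for different numbers. Values of the same number were thus the higher ones in the drug experiment only. Figures were drawn with matplotlib 3.10.9. Alternatives were other pseudocounts, filters and scalings, protein-coding genes only, a replicate block, the spread of all libraries, sex as a covariate, and leaving out each library.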

Additional observations from a re-analysis of the deposited data

How the results depend on the processing

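The counts of called members held under every alternative run: 0 in either direction for the knockout, TEPP-46 and the difference of their effects, and 3 higher with 66 to 71 lower for PKM2 WT against vehicle (67 to 70 when 1 library was left out). The median of the members in PKM2 WT against vehicle was -0.71 with a pseudocount of 5 and -0.68 after quantile normalization, which also turned Mrps21 to 0.029 (limma adjusted p = 0.772); the cause was not tested. As a share of all RPKM, the summed level of PKM2 KO was 0.913 of PKM2 WT and that of PKM2 WT 0.453 of vehicle. Leaving out 1 library, the median was -0.063 (without PKM2 KO replicate 1) to -0.025 (without PKM2 KO replicate 2) for the knockout, -0.027 without PKM2 WT replicate 1, -0.19 to -0.092 for TEPP-46, and 0.052 (without PKM2 WT replicate 2) to 0.13 for the difference of effects, with 0.056 without TEPP-46 replicate 2. The fits without a PKM2 KO library rest on 1 such library, assumed to vary like the others. Quantile normalization gave a knockout median of -0.023. Mrpl1 lost its call without PKM2 WT replicate 1 or 2 or vehicle replicate 1 or 3 (adjusted p of 0.0680 to 0.160), and Mrps21 without PKM2 WT replicate 2 or 3 or any vehicle library (0.0511 to 0.109), limma throughout. Mrpl45 lost its call without PKM2 WT replicate 2 or any vehicle library (0.0523 to 0.122) and after quantile normalization (0.0742). With sex as a covariate in PKM2 WT against vehicle, chosen after seeing the data, Mrpl1, Mrpl45 and Mrps21 lost their calls (0.127 to 0.368). Among the named members, 20 values near 0 changed sign in at least 1 alternative, in 37 fits in all, and passed the threshold in neither fit. With the replicate number as a block, which no method states, 0 members were called in the knockout, TEPP-46 and the difference. In PKM2 WT against vehicle, 71 were then called lower and 3 higher. Over all genes, calls numbered 11 for the knockout (0 with the block, 6 with sex, 7 with a pseudocount of 5, 25 with the spread of all libraries, 5 to 21 without 1 library), 0 for TEPP-46 (3 with the block, 0 to 3 without 1 library, 3 for protein-coding genes only) and 6 for the difference (3 with the block, 10 with a pseudocount of 0.1, 3 to 12 without 1 library). Depth is unknown, so the precision of low RPKM values rests on the spread between libraries alone.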
